A study of Homo sapiens with 24 samples.

Results

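The genes described here are 43 human genes whose proteins make ribosomes in the nucleolus. They were taken as a fixed list of gene symbols, described as growth-linked and downstream of the transcription factor MYC. A gene counted as measured if at least 1 of its probes had a detection p under 0.05 on at least 4 of 24 arrays. Of the 43 genes, 39 were measured, by 58 kept probes of the 63 on the array, among 12357 genes measured in all. NPM1, a nucleolar histone and ribosome chaperone, had 1 probe that was detected on a single array and was not kept. GNL3, DDX18 and WDR43 had no probe named for them in the platform annotation and were not analysed here. For the 13 genes with several kept probes the brightest one stands for the gene, and the others are given beside it where the gene is described with values.

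RNA came from MCF10A, a human breast epithelial cell line that does not form tumours, and was read on Illumina bead arrays. Cells stably expressing the CYT2 or the CYT1 isoform of ERBB4, a receptor tyrosine kinase of the EGF receptor family, were set beside cells with a control vector (VEC, called vector cells here). Cells of all lines were starved of serum for 48 h, and the 6 groups were CYT2 with NRG1, CYT2 without it, CYT1 with NRG1, CYT1 without it, vector with NRG1 and vector without it, NRG1 (neuregulin 1, an ERBB4 ligand) being given for 2 h. Each group held 2 biological samples, and each sample was read on 2 technical arrays, which were averaged. The series title calls the receptors full-length JM-a forms, while the sample labels write ICD CYT1 and ICD CYT2, and neither says whether a line is 1 clone or a pool. Whether the 2 samples were grown as separate cultures is not in the labels, and the p-values then cover only how far these samples differ, which may be technical.

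Between 39.6% and 43% of all probes were detected on an array, and 37 of the 39 members were detected on all 24. The exceptions were POLR1A (21 arrays) and UTP20 (18 arrays), and each array detected 38 or 39 members. Because RNA was taken from whole cultures, fewer cells of a kind and less RNA per cell cannot be told apart. The ERBB4 probe named in the annotation was not detected on any of the 24 arrays, in ERBB4 lines or in vector cells, so it gives no check of the labels. Of 10 epithelial markers looked up, 7 were measured (KRT5, KRT14, CDH1, EPCAM, KRT18, LAMB3 and ITGB4). All 7 were detected on 4 of 4 arrays in every group. KRT17, KRT6A and TP63 were not measured. Of the other cell types, 3 of 6 fibroblast markers (COL1A1, COL1A2, DCN) and 3 of 5 immune markers (CD14, CD68, LYZ) were measured, and none of the 3 endothelial ones. The samples of CYT1 cells with NRG1 and those of vector cells without ligand were the least alike. The root mean square log2 difference between the samples of a group, over the 39 members, was 0.211 and 0.222 there and 0.109 to 0.137 in the other 4 groups. Over all genes this difference was likewise larger there, at 0.255 and 0.243, and 0.158 to 0.190 in the other 4 groups. The gap between the samples passed 0.25 (log2) for 9 members in CYT1 cells with NRG1 and for 11 members in vector cells without ligand. It did so for 1 to 3 members in each other group. Such gaps were not counted over all genes.

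Ribosomes are built in the nucleolus around ribosomal RNA. RNA polymerase I transcribes the large precursor, small nucleolar ribonucleoproteins (snoRNPs) modify it, the small subunit processome folds and cuts out the part that becomes the 40S subunit, and a succession of assembly factors turns the rest into the 60S subunit. These genes are widely known as targets of the growth-linked transcription factor MYC, which binds the E-box sequence CACGTG, and their transcripts rise in many cell types when growth factors act.

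NRG1 in the ERBB4 lines came with higher signals of most of these genes, by small amounts. Averaged over CYT2 and CYT1 cells, 31 of the 39 members lay above 0, with a median log2 change of 0.12, while 46.6% of all genes lay above 0 and their median was −0.01. Past the threshold (an adjusted p under 0.05 in limma, Benjamini-Hochberg over 12357 genes), 2 of 39 members rose, NIP7 and DDX21, and none fell. In this comparison 2.73% of all genes were called. At an unadjusted p under 0.05, 15 members were higher and 2 lower, 17 of 39, beside 14.5% of all genes. In 13 members the 4 samples with NRG1 and the 4 without it did not overlap (12 higher, 1 lower), beside 9.44% of all genes.

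The members' medians by sample show the same order. The median deviation of the members from their 12-sample means was 0.08 and 0.10 in CYT2 cells with NRG1, against −0.01 and −0.06 in CYT2 cells without it. It was 0.11 and 0.07 in CYT1 cells with NRG1, against 0.004 and −0.04 without, and −0.03 and −0.09 in vector cells with NRG1, against −0.06 and −0.09 without. The 4 ERBB4 samples with ligand were thus the highest of the 12. Of the 39 members, 15 had their highest group mean in CYT2 cells with NRG1 and 15 in CYT1 cells with NRG1. The lowest was in vector cells without ligand for 18 members. Such counts were not made over all genes. CYT1 cells with NRG1 and vector cells without ligand were also the groups whose samples differed most.

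**Figure D1:**
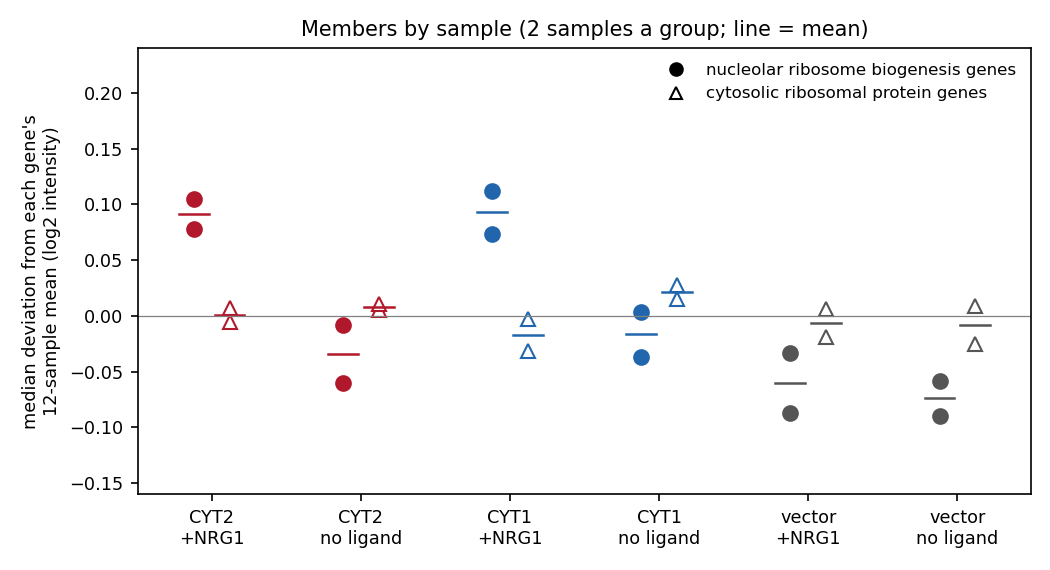
Median log2 deviation of a gene list from each gene's 12-sample mean (y axis) in each sample of the 6 groups (x axis), with filled circles for the 39 nucleolar genes, open triangles for 67 cytosolic ribosomal protein genes and short lines for the mean of 2 samples. The circles of the 4 ERBB4 samples with NRG1 sit between 0.07 and 0.11, above the other 8.

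**Figure D2:**
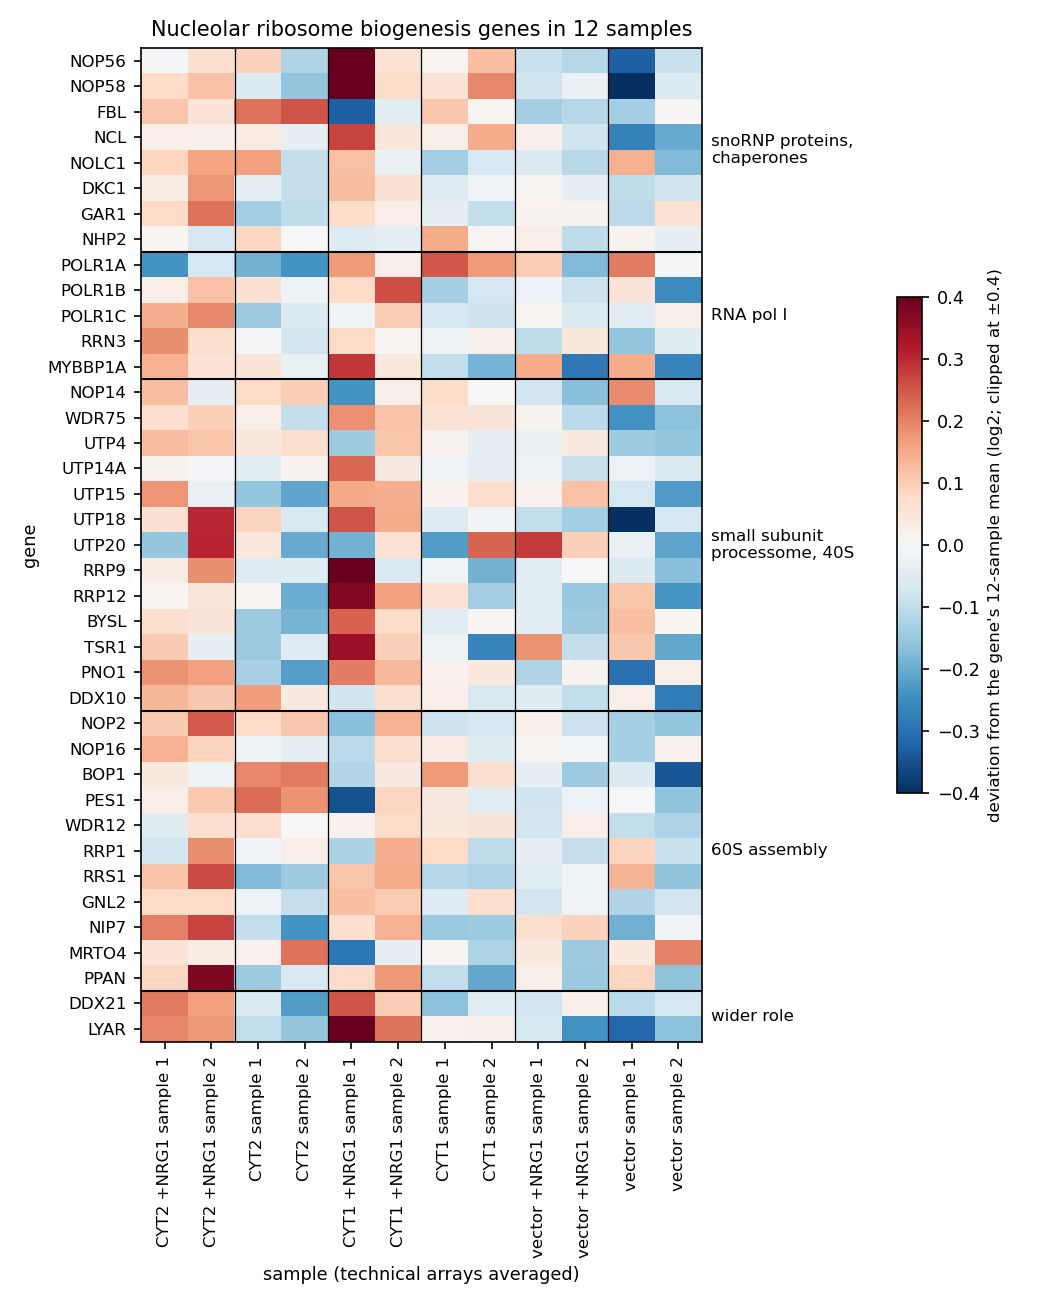
Deviation of each of the 39 members (rows, grouped by role) from its 12-sample mean log2 intensity (colour, red higher and blue lower, clipped at 0.4 in size) in the 12 samples (columns). In sample 1 of CYT1 cells with NRG1, NOP58, RRP9 and LYAR are red while PES1, FBL and MRTO4 are blue.

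In 60S assembly, NIP7 read 10.77 and 10.84 (log2 intensity) in CYT2 cells with NRG1, against 10.48 and 10.33 without, and 10.63 and 10.71 in CYT1 cells with NRG1, against 10.42 and 10.43 without. All 4 samples with ligand lay above all 4 without. NIP7 is a nucleolar protein needed for pre-rRNA processing and 60S assembly. Its log2 change was 0.33 ± 0.07 (SE), or 1.25-fold, with an adjusted p of 0.0275 from limma. In vector cells it read 10.63 and 10.66 with NRG1, against 10.38 and 10.56 without, a log2 change of 0.18 ± 0.10 that did not pass (adjusted p = 0.999). Leaving out 1 sample at a time, NIP7 passed in 3 of 8 fits, with adjusted p from 0.0378 to 0.146.

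DDX21, a nucleolar RNA helicase that binds rRNA and snoRNAs and also acts in RNA polymerase II transcription, read 11.65 and 11.60 in CYT2 cells with NRG1, against 11.38 and 11.22 without. It read 11.69 and 11.54 in CYT1 cells with NRG1, against 11.28 and 11.40 without. The groups with and without ligand did not overlap in either line, and the averaged log2 change was 0.30 ± 0.07 (1.23-fold, adjusted p = 0.0466, limma). Vector cells held 11.37 and 11.46 with NRG1, against 11.33 and 11.37 without, and those groups overlapped. DDX21 passed in 1 of 8 fits that left out 1 sample (without sample 2 of CYT1 cells with NRG1), with adjusted p from 0.0239 to 0.212.

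LYAR, a nucleolar protein of growing cells with roles in rRNA transcription and processing, was next by size of p. It read 10.37 and 10.35 in CYT2 cells with NRG1, against 10.08 and 10.02 without, and 10.58 and 10.39 in CYT1 cells with NRG1, against 10.19 and 10.20 without. The averaged log2 change was 0.30 ± 0.07, adjusted p = 0.056 (limma), just outside the threshold, and its other probe gave 0.25 ± 0.07. In vector cells LYAR read 10.11 and 9.93 with NRG1, against 9.86 and 10.01 without, and those groups overlapped.

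RRS1, which brings the 5S ribonucleoprotein into the large subunit, read 9.77 and 9.92 in CYT2 cells with NRG1, against 9.48 and 9.51 without, and 9.77 and 9.81 in CYT1 cells with NRG1, against 9.54 in both samples without. Its averaged log2 change of 0.30 ± 0.08 had an adjusted p of 0.0655. The vector samples read 9.62 and 9.64 with NRG1, inside the span of 9.80 and 9.50 without it. PPAN, a 60S assembly factor, read 7.75 and 8.04 in CYT2 cells with NRG1, against 7.52 and 7.61 without, and 7.74 and 7.84 in CYT1 cells with NRG1, against 7.57 and 7.46 without (averaged 0.30 ± 0.09, adjusted p = 0.104). Vector samples of PPAN overlapped, at 7.69 and 7.52 with NRG1, against 7.75 and 7.51 without. These 5 genes, NIP7, DDX21, LYAR, RRS1 and PPAN, had the smallest p of the members, with averaged values between 0.30 and 0.33.

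**Figure D3:**
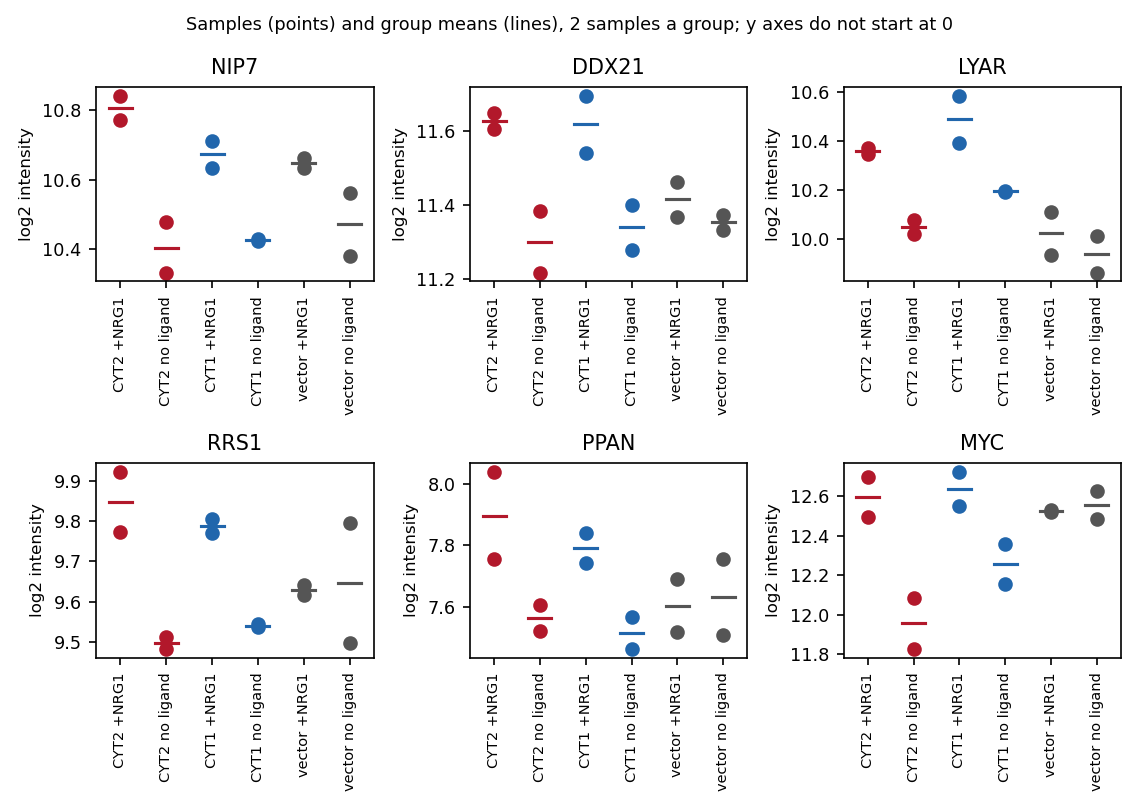
Log2 intensity (y axis, not starting at 0) of NIP7, DDX21, LYAR, RRS1, PPAN and MYC in each sample (points) of the 6 groups (x axis), with lines for group means. In the ERBB4 lines all 6 genes sit higher with NRG1 than without, whereas in vector cells RRS1, PPAN and MYC do not.

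Most small subunit processome and 40S maturation factors had values above 0. Of 13 measured, 12 lay above 0, with a median log2 change of 0.18, and 7 had an unadjusted p under 0.05, all higher (UTP15, UTP18, RRP9, RRP12, BYSL, TSR1, PNO1). None passed the threshold, the smallest adjusted p being 0.164 for PNO1, which acts late in 40S maturation. PNO1 read 8.43 and 8.42 in CYT2 cells with NRG1, against 8.13 and 8.04 without, and 8.46 and 8.39 in CYT1 cells with NRG1, against 8.27 and 8.29 without. Vector cells read 8.14 and 8.27 with NRG1, against 7.96 and 8.28 without, which overlap. TSR1, a 40S assembly factor, read 8.83 and 8.69 in CYT2 cells with NRG1, against 8.58 and 8.67 without, and 9.07 and 8.82 in CYT1 cells with NRG1, against 8.71 and 8.46 without. Its vector samples spread as widely, at 8.91 and 8.63 with NRG1, against 8.83 and 8.52 without. The other TSR1 probe, detected on 4 arrays, gave an averaged change of 0.08 ± 0.08, against 0.25 ± 0.10 for the brightest one. NOP14, an early processome protein, was the one member of this group below 0, at −0.10, and its other probe gave 0.05.

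BYSL (bystin), a 40S assembly factor, had values of opposite sign in the ERBB4 and vector lines. It read 9.05 and 9.04 in CYT2 cells with NRG1, against 8.84 and 8.80 without, and 9.22 and 9.06 in CYT1 cells with NRG1, against 8.94 and 8.99 without. In vector cells it read 8.94 and 8.84 with NRG1, against 9.11 and 9.00 without. No pair of groups overlapped, with ligand higher in both ERBB4 lines and lower in vector cells. Groups of 2 samples can separate by chance alone, and the share of all genes with such opposite separations was not counted. The test of the difference did not pass in either case. It gave 0.38 ± 0.14 for CYT2 minus vector (adjusted p = 0.436) and 0.33 ± 0.14 for CYT1 minus vector (adjusted p = 0.826).

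Of the 8 snoRNP proteins and nucleolar chaperones, 6 lay above 0 (median 0.11). GAR1, an H/ACA snoRNP protein, read 10.21 and 10.35 in CYT2 cells with NRG1, against 9.99 and 10.03 without, and 10.20 and 10.16 in CYT1 cells with NRG1, against 10.09 and 10.03 without (averaged 0.19 ± 0.07, adjusted p = 0.197). Its other 3 kept probes gave 0.24, 0.14 and 0.18. DKC1, the pseudouridine synthase of the same particle, averaged 0.15 ± 0.07 (adjusted p = 0.332). NHP2, another H/ACA protein, had a value of −0.10, and its other 3 probes lay between −0.15 and −0.10. FBL (fibrillarin), the methyltransferase of box C/D snoRNPs, was lower with ligand, though not past the threshold. FBL read 11.25 and 11.18 in CYT2 cells with NRG1, against 11.35 and 11.38 without, and 10.81 and 11.09 in CYT1 cells with NRG1, against 11.24 and 11.14 without (averaged −0.20 ± 0.08, adjusted p = 0.251). The H/ACA proteins GAR1 and NHP2 thus had values of opposite sign on all 4 of their probes.

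Among the RNA polymerase I genes, 4 of 5 lay above 0 (median 0.16) and none passed. POLR1C, a subunit shared by RNA polymerases I and III, read 10.41 and 10.45 in CYT2 cells with NRG1, against 10.12 and 10.21 without, and 10.25 and 10.37 in CYT1 cells with NRG1, against 10.20 and 10.18 without. Vector samples overlapped, at 10.28 and 10.21 with NRG1, against 10.22 and 10.29 without. The averaged change was 0.19 ± 0.07 (adjusted p = 0.177), and 0.26 ± 0.08 on its other probe. POLR1B, the second largest subunit, read 6.40 and 6.49 in CYT2 cells with NRG1, against 6.43 and 6.35 without, and 6.45 and 6.63 in CYT1 cells with NRG1, against 6.24 and 6.30 without. In vector cells POLR1B read 6.35 and 6.29 with NRG1, against 6.42 and 6.12 without. Its other probe gave an averaged 0.18 ± 0.10, beside 0.16 for the brightest. RRN3, which links the polymerase to its promoter factors, had an averaged value of 0.11, and MYBBP1A, a nucleolar MYB-binding protein, one of 0.20. The largest subunit, POLR1A, was the member below 0, at −0.03.

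The 60S assembly factors were divided in sign. Of 11 measured, 7 lay above 0 and 4 below, with a median of 0.07, and BOP1, PES1, MRTO4 and WDR12 made up the 4. BOP1 and PES1 are partners, with WDR12, in the PeBoW complex that processes the 60S precursor. BOP1 read 11.02 and 10.96 in CYT2 cells with NRG1, against 11.17 and 11.19 without, and 10.86 and 11.02 in CYT1 cells with NRG1, against 11.15 and 11.05 without (averaged −0.17 ± 0.08, adjusted p = 0.341). It was the 1 member lower without overlap. PES1 averaged −0.13, WDR12 −0.01 and MRTO4, a ribosomal stalk assembly factor, −0.09. Apart from UTP15, UTP18, RRP9 and RRP12, named above by their p, the members not yet given values had averaged values from 0.01 to 0.17. They were UTP4, UTP14A, UTP20, DDX10 and WDR75 of the processome, NOP16, NOP2, GNL2 and RRP1 of 60S assembly, and NOP56, NOP58, NOLC1 and NCL among the snoRNP proteins and chaperones. None of them had an unadjusted p under 0.05. Across all roles, 19 other kept probes of 13 measured members could be set beside the brightest one, and 17 of the 19 had its sign.

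**Figure D4:**
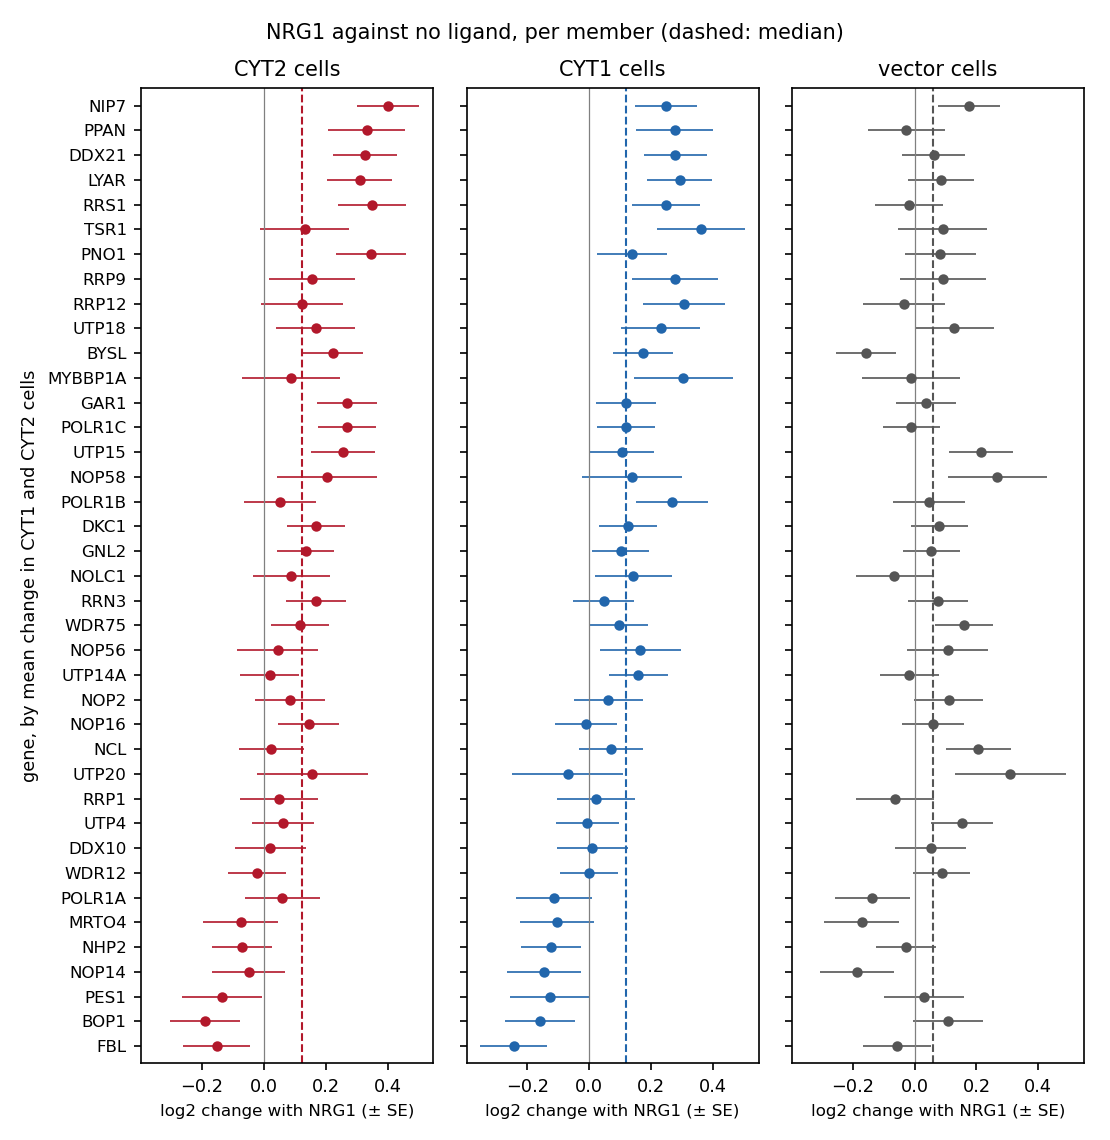
Log2 change with NRG1 against no ligand (x axis, ± SE from limma) of each of the 39 members (y axis, ordered by the mean change in CYT1 and CYT2 cells) in CYT2, CYT1 and vector cells, with a dashed line at the median. The medians sit at 0.12 in CYT2 cells, 0.12 in CYT1 cells and 0.06 in vector cells, and NIP7 tops the order while FBL closes it.

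Within single lines no member passed the threshold. In CYT2 cells 32 of 39 lay above 0 with a median of 0.12, beside 44.8% and −0.02 for all genes. At an unadjusted p under 0.05 there were 10 members, all higher, beside 11.4% of all genes, and 1.65% of all genes passed the threshold. The smallest adjusted p was 0.0731, for NIP7 (0.40 ± 0.10, 1.32-fold), followed by RRS1 (0.35 ± 0.11, adjusted p = 0.178) and DDX21 (0.33 ± 0.10, adjusted p = 0.182). In CYT1 cells 28 of 39 lay above 0, again with a median of 0.12, beside 48.1% and −0.007 for all genes. An unadjusted p under 0.05 was found for 9 members (8 higher, and FBL lower), beside 7.55% of all genes. Of all genes, 0.0324% passed the threshold. There LYAR (0.29 ± 0.11), DDX21 (0.28 ± 0.10) and TSR1 (0.36 ± 0.14) had the smallest p, with adjusted p of 0.553 to 0.613.

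In vector cells 25 of 39 members lay above 0 with a median of 0.06, beside 53.9% and 0.01 for all genes. None had even an unadjusted p under 0.05, a level that 4.05% of all genes reached, and 0% of all genes passed the threshold. The smallest p belonged to UTP15, a processome protein, at 0.21 ± 0.10, then NCL at 0.21 ± 0.10 and NIP7 at 0.18 ± 0.10 (adjusted p = 0.999 for each). UTP15 read 6.70 and 6.80 in vector cells with NRG1, against 6.61 and 6.45 without. In CYT2 cells the same gene read 6.86 and 6.65 with NRG1, against 6.53 and 6.47 without. In CYT1 cells it read 6.83 and 6.82 with, against 6.69 and 6.75 without, so it was higher with ligand in all 3 lines. It was chosen by its p in vector cells, and the share of all genes so separated was not counted.

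The ligand's effect was not shown to differ between lines for any member. For CYT2 minus vector, 2 members (BYSL and RRS1) had an unadjusted p under 0.05, beside 8.29% of all genes, and none of the members but 0.243% of all genes passed. For RRS1 the difference was 0.37 ± 0.15 (adjusted p = 0.540), and for POLR1C, next by p, 0.28 ± 0.13 (adjusted p = 0.628). For CYT1 minus vector, 1 member (BYSL) stood beside 5.94% of all genes at the unadjusted level, with 0% of all genes past the threshold, and RRP12 (0.34 ± 0.19) and PPAN (0.30 ± 0.18) came next. For CYT1 minus CYT2 no member had an unadjusted p under 0.05, beside 3.62% of all genes, and 0.00809% of all genes passed. The closest were POLR1B at 0.22 ± 0.16, PNO1 at −0.21 ± 0.16 and POLR1C at −0.15 ± 0.13, all with an adjusted p of 1. A difference added after the data were seen, the mean of both ERBB4 lines minus vector, gave 3 members (BYSL, RRS1, PPAN) at the unadjusted level, beside 8.53% of all genes, and 0 past the threshold, beside 0.146%. Its smallest adjusted p among members was 0.397.

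Against vector cells, LYAR was the 1 member called. In CYT1 cells averaged over ligand it rose by 0.36 ± 0.07 (1.28-fold, adjusted p = 0.0451, limma), with all 4 CYT1 samples above all 4 vector samples. At an unadjusted p under 0.05 there were 8 members, all higher, beside 16.5% of all genes, and 0.979% of all genes passed. The other LYAR probe gave 0.11 ± 0.07 (unadjusted p = 0.175), so the probes disagree on size. LYAR passed in 2 of 8 fits that left out 1 sample, with adjusted p from 0.0255 to 0.246. NCL (nucleolin), which binds pre-rRNA and histones, was second by p. It read 12.51 and 12.28 in CYT1 cells with NRG1 and 12.26 and 12.39 without, against 12.26 and 12.16 in vector cells with NRG1 and 11.97 and 12.04 without (0.26 ± 0.07, adjusted p = 0.126), and its other probe gave 0.11 ± 0.09. WDR75, a processome protein, read 9.81 and 9.74 in CYT1 cells with NRG1 and 9.69 and 9.68 without, against 9.65 and 9.53 in vector cells with NRG1 and 9.39 and 9.47 without (0.22 ± 0.07, adjusted p = 0.134). In both genes every CYT1 sample lay above every vector sample, in NCL narrowly (12.262 for the lowest CYT1 sample, 12.2599 for the highest vector sample). The share of all genes separated in this way, as LYAR, NCL and WDR75 were, was not counted for this comparison. Here 4 of 7 epithelial, 2 of 3 fibroblast and 0 of 3 immune markers lay above 0, and their part in the members' values was not tested.

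In CYT2 cells against vector averaged over ligand, 34 of 39 members lay above 0 (median 0.09), beside 52.7% and 0.008 for all genes. An unadjusted p under 0.05 was found for 10 members (9 higher, and POLR1A lower), beside 16.3% of all genes. None passed, beside 2.49% of all genes. FBL, BOP1 and UTP18 had the smallest p, at 0.25 ± 0.08, 0.25 ± 0.08 and 0.28 ± 0.09, with adjusted p of 0.115, 0.132 and 0.134. FBL in vector cells read 11.00 and 11.02 with NRG1 and 11.00 and 11.14 without, below all 4 CYT2 samples given above, and BOP1 read 10.95 and 10.84 with NRG1 and 10.93 and 10.64 without, also below all 4. Both genes were chosen by their p, and the share of all genes so separated was not counted here. UTP18, a processome protein, read 7.95 and 8.19 in CYT2 cells with NRG1 and 7.97 and 7.82 without, against 7.79 and 7.75 in vector cells with NRG1 and 7.46 and 7.82 without. In CYT1 cells UTP18 read 8.14 and 8.03 with NRG1 and 7.83 and 7.87 without. Of the marker lists, EPCAM rose in CYT2 cells in this comparison (0.45 ± 0.08) and COL1A1 fell (−0.37 ± 0.09, with 2 of 4 arrays detected in each CYT2 group and 4 of 4 in each vector group), while 6 of 7 epithelial, 1 of 3 fibroblast and 2 of 3 immune markers lay below 0. Their part in the members' values was not tested.

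Without ligand, no member passed the threshold in either ERBB4 line against vector cells. CYT2 cells had 26 of 39 members above 0 (median 0.04), beside 53.8% and 0.01 for all genes. An unadjusted p under 0.05 was found for 6 members (4 higher, 2 lower), beside 16.4% of all genes. None passed the threshold, beside 1.93%. BOP1 led at 0.40 ± 0.11 (adjusted p = 0.0979), followed by FBL at 0.30 ± 0.11 and POLR1A at −0.31 ± 0.12. POLR1A, the catalytic subunit of RNA polymerase I, read 5.06 and 5.22 in CYT2 cells with NRG1 and 5.11 and 5.05 without, 5.46 and 5.32 in CYT1 cells with NRG1 and 5.54 and 5.47 without, and 5.39 and 5.12 in vector cells with NRG1 and 5.50 and 5.28 without. It was dim, being detected on 3 and 2 of 4 arrays in CYT2 cells with and without ligand and on 4 of 4 in each other group, and from the second technical arrays alone its difference turned to 0.18. CYT1 cells also had 26 of 39 above 0 (median 0.07), beside 51.2% and 0.005 for all genes. There 5 members were higher at the unadjusted level, beside 14% of all genes, and none passed the threshold, beside 0.194%. NCL (0.32 ± 0.10), BOP1 (0.32 ± 0.11) and NOP58 (0.44 ± 0.16) led there, with adjusted p of 0.204, 0.244 and 0.248. NOP58, a core box C/D snoRNP protein, read 10.99 and 10.61 in CYT1 cells with NRG1 and 10.59 and 10.73 without, against 10.46 and 10.51 in vector cells with NRG1 and 9.95 and 10.48 without, 1 vector sample lying well below the other.

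With NRG1, CYT2 cells had 36 of 39 members above vector cells (median 0.13, beside 49.2% and −0.003 for all genes). At the unadjusted level 3 members were higher, beside 9.48% of all genes, and 0 passed, beside 0.397%. LYAR (0.34 ± 0.11), PPAN (0.29 ± 0.12) and UTP18 (0.30 ± 0.13) led, with adjusted p of 0.286 to 0.477. CYT1 cells with NRG1 had 32 of 39 above vector cells (median 0.13), beside 48.8% and −0.005 for all genes. There 5 members were higher at the unadjusted level, beside 9.01% of all genes, and 0 passed the threshold, beside 0.0162%. LYAR led at 0.47 ± 0.11 (1.38-fold, adjusted p = 0.168), then RRP12 at 0.37 ± 0.13 and BYSL at 0.25 ± 0.10. RRP12, known from yeast as a factor in the export of both subunits, read 8.56 and 8.60 in CYT2 cells with NRG1 and 8.56 and 8.35 without, 8.92 and 8.72 in CYT1 cells with NRG1 and 8.61 and 8.42 without, and 8.51 and 8.40 in vector cells with NRG1 and 8.66 and 8.31 without. The comparisons with and without ligand share a vector line, and those of CYT2 and CYT1 cells share their vector samples.

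Between the isoforms, CYT1 minus CYT2 averaged over ligand, 18 of 39 members lay above 0, with a median of −0.01. The values for all genes were 49.1% and −0.003. At the unadjusted level there were 5 members, POLR1A higher in CYT1 cells and FBL, NOP2, PES1 and MRTO4 lower, beside 9.29% of all genes, and 0 passed, beside 0% of all genes. POLR1A differed by 0.34 ± 0.09 (adjusted p = 0.501) with no overlap between the CYT1 and CYT2 samples above, and FBL by −0.22 ± 0.08 (adjusted p = 0.522). How many of all genes separate these lines without overlap was not counted. NOP2, an rRNA cytosine methyltransferase, read 10.39 and 10.70 in CYT1 cells with NRG1 and 10.47 and 10.49 without, against 10.66 and 10.80 in CYT2 cells with NRG1 and 10.63 and 10.66 without. Its difference was −0.18 ± 0.08 (adjusted p = 0.530), while its other probes gave −0.02 and 0.03.

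Genes around the members were read from lists of the same pathway. Of 79 other nucleolar factors measured, 53 lay above 0 with NRG1 in the ERBB4 lines on average. Of the 79, 4 passed, all higher, beside 2.73% of all genes. MAK16, GTPBP4, URB2 and LTV1 made up the 4. The values were those of MAK16 (0.38 ± 0.07) and GTPBP4 (0.27 ± 0.06), both 60S assembly factors, URB2 (0.42 ± 0.09) and LTV1 (0.29 ± 0.07), a 40S assembly factor. MAK16 also rose in CYT2 cells alone (0.55 ± 0.10, adjusted p = 0.0164), reading 9.70 and 9.80 with NRG1, against 9.28 and 9.13 without. Of 16 other RNA polymerase I genes 11 lay above 0 and TAF1A, a subunit of the promoter factor SL1, passed (0.42 ± 0.10). UBTF, the upstream binding factor of rDNA, was at 0.29 ± 0.09 and did not pass (adjusted p = 0.144). Cytosolic ribosomal protein genes, which code for the parts the nucleolus assembles, mostly lay below 0. Of these, 21 of 67 lay above 0 with a median of −0.02, beside 46.6% and −0.01 for all genes. None passed (limma), and 0 had an unadjusted p under 0.05, beside 14.5% of all genes. LAMB3, an epithelial marker, rose in the same comparison (0.55 ± 0.12), with 6 of 7 epithelial, 1 of 3 fibroblast and 1 of 3 immune markers above 0. The epithelial markers' median deviation from their 12-sample means was 0.002 and −0.05 in CYT2 cells with NRG1, against −0.11 and −0.13 without. It was 0.04 and 0.06 in CYT1 cells with NRG1, against −0.08 and −0.14 without, and 0.09 and −0.003 in vector cells with NRG1, against 0.26 and −0.004 without. In CYT2 cells 4 of 7 of these markers lay above 0 with NRG1 (median change 0.01), in CYT1 cells 7 of 7 (median 0.10) and in vector cells 0 of 7 (median −0.06). Their part in the members' values was not tested. NOC3L, a 60S assembly factor, was the 1 other nucleolar gene to pass in CYT2 cells against vector averaged over ligand (0.31 ± 0.07, adjusted p = 0.0491, limma). That was 1 of 79, beside 2.49% of all genes.

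**Figure D5:**
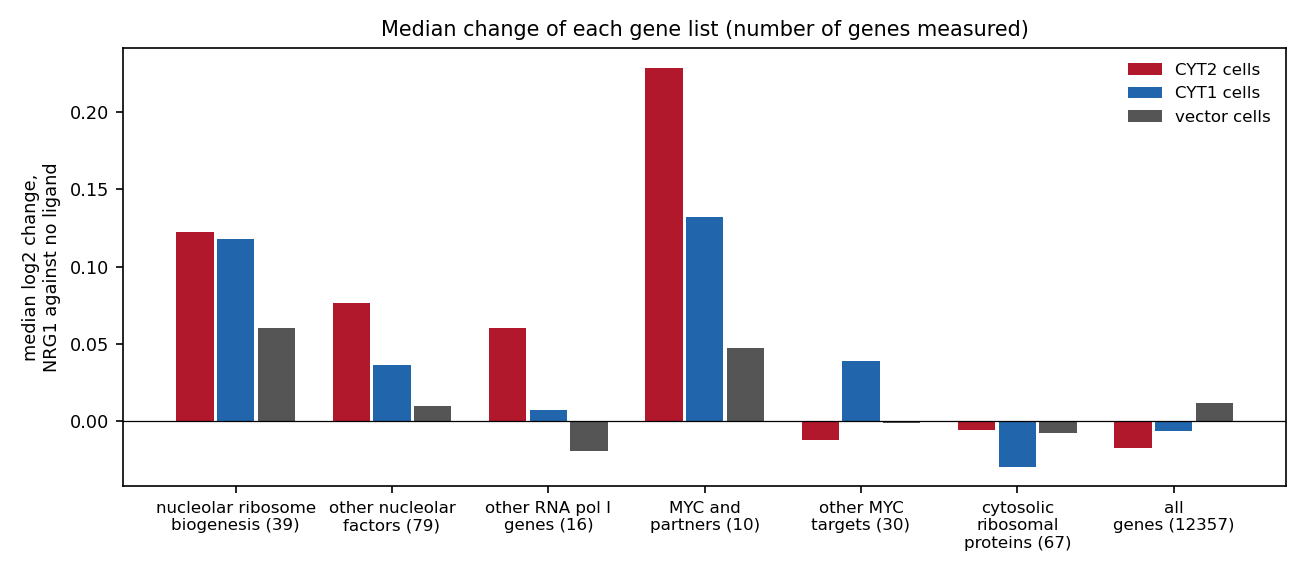
Median log2 change with NRG1 against no ligand (y axis, bars from 0) of the members, 5 other gene lists and all genes (x axis, number measured in brackets), with 1 bar each for CYT2, CYT1 and vector cells. The members' bars are at 0.12, 0.12 and 0.06, those of MYC and its partners at 0.23, 0.13 and 0.05, and those of the cytosolic ribosomal proteins lie below 0.

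MYC itself read 12.70 and 12.50 in CYT2 cells with NRG1, against 12.09 and 11.83 without, and 12.55 and 12.72 in CYT1 cells with NRG1, against 12.36 and 12.16 without. Vector cells read 12.53 and 12.52 with NRG1, against 12.63 and 12.49 without. MYC rose with NRG1 in CYT2 cells (0.64 ± 0.12, 1.56-fold, adjusted p = 0.0205) and on average over the ERBB4 lines (0.51 ± 0.09, adjusted p = 0.0071). Without ligand it was lower in CYT2 cells than in vector cells (−0.60 ± 0.12, adjusted p = 0.0292), and with NRG1 the same difference was 0.07 ± 0.12. MXD1 and MNT, which pair with MAX in MYC's place, rose on average too (0.42 ± 0.08 and 0.49 ± 0.09). Of the 10 measured genes of MYC and its partners, 7 lay above 0 and 3 below, with a median of 0.17, and 3 passed, all higher. At an unadjusted p under 0.05, 5 were higher and 3 lower. The lower ones were MXD3, MXD4 and MXI1, which also pair with MAX and were named after their values were seen. Of 30 MYC target genes outside the nucleolus, 15 lay above 0, with a median of 0.005. Among them ODC1, the first enzyme of polyamine synthesis, passed (0.36 ± 0.08), 1 of 30 beside 2.73% of all genes.

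The E-box CACGTG (a palindrome, so 1 search covers both strands) was looked for in RefSeq promoter windows of GRCh38.p14, from 250 bases before to 50 after each start site. Among measured members with a window it was found in 17 of 34, beside 12.5% of 9887 measured genes, 35.8% of 67 other nucleolar factors, 52.0% of 25 MYC targets outside the nucleolus and 6.45% of 62 cytosolic ribosomal proteins. Of the 17 members with an unadjusted p under 0.05 for NRG1 in the ERBB4 lines, 14 had a window and 8 of those held the motif, beside 9 of 20 for the other measured members. The members were listed as genes downstream of MYC, which binds this motif, so their share is not independent of that choice. The same holds for the list of MYC targets. A match describes the letters only. These 8, chosen by that p and by holding the motif, are shown with the motif in capitals and 12 bases on either side.
DDX21 (chr10:68956604-68956633, plus strand, motif at −31): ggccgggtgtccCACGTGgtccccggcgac
LYAR (chr4:4290068-4290097, minus strand, motif at −64): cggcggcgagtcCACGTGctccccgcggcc
PNO1 (chr2:68157885-68157914, plus strand, motif at 10): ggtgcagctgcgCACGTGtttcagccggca
BYSL (chr6:41921515-41921544, plus strand, motif at 29): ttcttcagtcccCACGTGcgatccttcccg
GAR1 (chr4:109815781-109815810, plus strand, motif at 32): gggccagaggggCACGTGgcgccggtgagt
FBL (chr19:39846356-39846385, minus strand, motif at 7): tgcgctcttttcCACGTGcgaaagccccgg
UTP18 (chr17:51260445-51260474, plus strand, motif at −89): gggagtgctggtCACGTGgcaagaggctgc
RRP9 (chr3:51941892-51941921, minus strand, motif at −5): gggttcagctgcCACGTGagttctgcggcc
Positions count the motif's first base from the start site of its window, positive within the transcript. For DDX21, LYAR, BYSL and GAR1 that start site lies inside the annotated gene and is not the gene's outermost start. FBL, whose value with NRG1 was below 0, carries the motif 7 bases into its transcript, much as PNO1 does at 10. UTP18 holds a second copy at 5. NIP7, the member with the smallest p, has no CACGTG in its window, and its last 100 bases before the start site, of which 62% are G or C, are shown for contrast.
NIP7 (chr16:69339672-69339771, plus strand): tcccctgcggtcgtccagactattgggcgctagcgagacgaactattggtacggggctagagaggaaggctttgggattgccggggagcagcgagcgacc
Of the members called in any comparison, DDX21 and LYAR hold the motif in their windows and NIP7 does not.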

How the data were processed

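Labelling used an Illumina TotalPrep kit (per the labels). The deposited scanner table covers 47323 probes on 24 arrays with 1 intensity and 1 detection p-value per probe and array, not normalized, and the authors' deposited value table holds log2 of the same signals. No array position or scan date was used here, so batches were not examined. The neqc function (background correction, then quantile normalization, offset 16) was applied in limma 3.58.1 under R 4.3.3. Probes with detection p under 0.05 on 4 of 24 arrays were kept (23019 probes, 12357 genes), the brightest probe stood for a gene, and technical arrays were averaged. Groups were compared with lmFit and eBayes over 12 samples (6 residual and 6.31 prior degrees of freedom), with Benjamini-Hochberg adjustment over all genes and a threshold of 0.05. Other probes of a member come from a fit over all kept probes, which was not filtered further. The number of arrays limits precision. Values in every sample are given for members past the threshold, or else for the 3 members with the smallest p in a comparison, and further members shown by sample were chosen after their values were seen. The members and the gene lists were chosen with earlier results of these data known. Symbols were updated through RefSeq tables, and CACGTG was searched in RefSeq promoter windows of 300 bases. The fit was run on simulated data as a check of the code, and its power at the size of the members' changes is not given here. Alternatives covered normalization, the filter, the probe, technical arrays, the samples fitted, the replicate block, eBayes settings and leaving out samples. Samples with the same replicate number deviated together with correlations from −0.17 to 0.23, so the number was not treated as a pairing.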

Additional observations from a re-analysis of the deposited data

Results flagged for a closer look

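BYSL was higher with NRG1 in both samples of CYT2 cells and of CYT1 cells than in either sample without it, and lower with NRG1 in both samples of vector cells. The difference in ligand effect was 0.38 ± 0.14 (log2, SE) for CYT2 minus vector and 0.33 ± 0.14 for CYT1 minus vector, and limma's adjusted p was 0.436 and 0.826, so neither passed. Both differences use the same vector samples. How many of all genes separate in opposite directions like this was not counted.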

How the results depend on the processing

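Counts of members past the threshold depended on the processing. For NRG1 averaged over the ERBB4 lines (2 members), the authors' value table gave 6, quantile normalization without background correction 5, all 24 arrays with sample as a random block 9, trended robust eBayes 4, technical array 1 alone, the compared groups alone, all kept probes or the replicate block 1 each, and technical array 2 alone 0. Leaving out 1 sample gave 0 to 5, with 5 without sample 2 of CYT1 cells with NRG1 (4 higher, and FBL lower at −0.27, adjusted p = 0.0456), 1 without sample 1 of CYT1 cells with NRG1 or sample 1 of CYT2 cells without ligand, and 0 without any of the other 5. For NRG1 in CYT2 cells (0 members) the authors' table gave 2, quantile 1, the 24 arrays 7 and trended robust eBayes 1. For CYT1 against vector averaged over ligand (1 member) quantile gave 3, the 24 arrays 5 and trended robust eBayes 2. It gave 0 with no filter, either technical array alone, the compared groups alone or all kept probes, and 0 to 3 when 1 sample was left out, with 3 without sample 2 of CYT1 cells with NRG1 and 2 without sample 2 of vector cells without ligand. The authors' table also gave 1 there, which was BOP1 and not LYAR. For CYT2 against vector averaged over ligand (0), the authors' table gave 1, the 24 arrays 5 and trended robust eBayes 1. For CYT2 against vector without ligand (0), the authors' table, quantile and trended robust eBayes gave 1 each and the 24 arrays 2. The 24 arrays gave 3 for CYT1 against vector without ligand, and 1 for CYT2 and 1 for CYT1 against vector with NRG1, where leaving out a sample gave 0 to 1 for CYT1. The cause was not tested. NRG1 in CYT1 cells, NRG1 in vector cells, CYT1 against CYT2 and the differences between lines stayed at 0 under every alternative run.

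NIP7 kept its call in 12 of 18 alternatives, DDX21 in 6 of 18 and LYAR (CYT1 against vector) in 7 of 18, all with the same sign. With the replicate block NIP7 had an adjusted p of 0.0324 and DDX21 of 0.056. POLR1A, near background in CYT2 cells, reversed to 0.18 with technical array 2 alone in CYT2 against vector without ligand. The members' median kept its sign in every alternative except for CYT1 against CYT2 (13 of 18) and the ligand effect of CYT1 minus vector (17 of 18). The authors' unnormalized table moved the median of all genes to 0.11 for NRG1 in CYT2 cells (−0.02 with neqc), and the members' median above it was 0.14 in both. Of all genes called, the share that was higher moved from 82.4% to 99.6% there, and from 76.9% to 96.4% for NRG1 averaged over the ERBB4 lines, from 30.6% to 62.5% for CYT2 against vector with NRG1, and from 29.8% to 73% for CYT1 against vector averaged over ligand. Quantile normalization moved it from 25% to 35.6% for CYT1 against vector without ligand (24 and 87 genes called). With neqc and then the authors' table, 49 and 8 genes were called for CYT2 against vector with NRG1. For CYT1 against vector averaged over ligand they were 121 and 37. The shares from the authors' table thus rest on few calls in these 2 comparisons.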
